A study of Mus musculus with 6 samples.

Results

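Collagen chains and the enzymes and chaperone that modify them were followed in MS-1 cells, an immortalised mouse endothelial line, after inhibition of single microRNAs and exposure to TGF-β2. The 57 genes were every deposited gene name of the form Col, a number, a and a number, plus the lysyl oxidases, the lysyl hydroxylases, the prolyl hydroxylase genes P4ha1, P4ha2, P4ha3, P4hb, Leprel1 and Leprel2, and the chaperone Serpinh1. They comprised 42 collagen chains and 15 enzyme or chaperone genes among the 29955 names of the table. Col6a5 and Col26a1 were not analysed here. RNA was measured by sequencing of ribosomal-RNA-depleted total RNA, in FPKM, a fragment count divided by the length of the transcript and by the depth of the library, which allows levels of different genes to be set side by side.

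The cells had been transfected with a locked nucleic acid inhibitor of miR-31, an inhibitor of miR-27 or a negative-control inhibitor, short synthetic oligonucleotides, and were then cultured for 72 h in medium that either contained 1 ng/ml TGF-β2 or lacked it. This gave 6 libraries, 1 for each combination of the 3 inhibitors and the 2 TGF-β2 states, all from MS-1 cells in serum-containing medium. No condition had a replicate of its own. The comparison of TGF-β2 with no TGF-β2 therefore rested on 3 libraries against 3, 1 pair per inhibitor, and each inhibitor comparison on 2 libraries against 2. The labels do not say whether the libraries came from separate cultures, so the p-values rest on a spread between libraries that may be technical. With 1 library per combination, that spread is the departure of the libraries from the sum of an inhibitor effect and a TGF-β2 effect. It mixes noise with any dependence of the TGF-β2 response on the inhibitor.

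Collagens are secreted proteins of the extracellular matrix in which chains wind around each other into a helix. In the endoplasmic reticulum, prolyl hydroxylases stabilise that helix, lysyl hydroxylases prepare sites for sugars and cross-links, and Serpinh1 (Hsp47) accompanies the folded procollagen. Outside the cell, lysyl oxidases start the cross-links that join collagen molecules. Endothelial cells normally rest on a basement membrane of type IV collagen, whereas fibrillar collagens are typical of mesenchymal cells, and TGF-β is a known inducer of collagen synthesis and of endothelial-to-mesenchymal change.

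The inhibitors are directed at microRNAs of the sequences below, from RefSeq (GRCm38.p6). They are shown because the letters in capitals, the seed at bases 2 to 8, decide which messages a microRNA can pair with.
mmu-miR-31-5p: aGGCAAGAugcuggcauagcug
mmu-miR-27a-3p: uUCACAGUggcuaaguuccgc
mmu-miR-27b-3p: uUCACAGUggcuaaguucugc
The miR-27 pair shares the seed UCACAGU, and miR-31 has the seed GGCAAGA. Matching letters in a message are TCTTGCC for miR-31 and ACTGTGA for miR-27, written as DNA.

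Promoter windows of 4 genes, from 250 bases before to 50 bases after the RefSeq start (GRCm38.p6), are shown on the gene's own strand. Col3a1 is the member with the largest rise under TGF-β2, Col4a1 and Col4a2 are divergent neighbours that both rose, and Loxl4 fell. Capitals mark CAGAC or its complement GTCTG, a short motif bound by Smad proteins, the transcription factors of the TGF-β pathway.
Col3a1, chr1:45311288-45311587, plus strand: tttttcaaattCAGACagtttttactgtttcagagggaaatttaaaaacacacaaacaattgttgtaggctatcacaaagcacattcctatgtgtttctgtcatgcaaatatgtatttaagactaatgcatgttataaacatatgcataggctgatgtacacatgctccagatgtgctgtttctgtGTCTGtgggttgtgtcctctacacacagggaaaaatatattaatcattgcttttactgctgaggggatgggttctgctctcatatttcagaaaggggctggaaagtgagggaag
Col4a1, chr8:11312777-11313076, minus strand: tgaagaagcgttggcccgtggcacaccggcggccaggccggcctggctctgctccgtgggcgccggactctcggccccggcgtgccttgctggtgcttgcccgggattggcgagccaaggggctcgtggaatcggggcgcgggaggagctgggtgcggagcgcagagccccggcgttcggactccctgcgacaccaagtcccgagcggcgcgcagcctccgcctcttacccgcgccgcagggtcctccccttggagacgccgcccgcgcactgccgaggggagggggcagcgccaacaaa
Col4a2, chr8:11312555-11312854, plus strand: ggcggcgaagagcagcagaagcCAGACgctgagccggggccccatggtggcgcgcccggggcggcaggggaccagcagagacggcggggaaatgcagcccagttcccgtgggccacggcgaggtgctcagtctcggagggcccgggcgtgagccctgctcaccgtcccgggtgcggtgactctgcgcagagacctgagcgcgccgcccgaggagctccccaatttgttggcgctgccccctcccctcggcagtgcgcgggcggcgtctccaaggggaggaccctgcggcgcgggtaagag
Loxl4, chr19:42612757-42613056, minus strand: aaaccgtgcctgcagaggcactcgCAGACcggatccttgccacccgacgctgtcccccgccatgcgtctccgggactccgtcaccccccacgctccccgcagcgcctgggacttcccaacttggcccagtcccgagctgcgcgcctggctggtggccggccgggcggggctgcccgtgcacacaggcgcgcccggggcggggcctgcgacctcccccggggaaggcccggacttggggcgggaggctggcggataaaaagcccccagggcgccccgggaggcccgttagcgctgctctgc
The Col4a1 and Col4a2 windows overlap by 78 bases, and their start sites lie 21 bases apart. CAGAC, searched on both strands, occurred in 12 of the 19 tested members that had a window, Loxl4 included, and in 49.6% of all 32851 RefSeq windows of the same length. ACGTG, the core of the motif of hypoxia-inducible factors, searched in the same way, occurred in 6 of 19 members (Col5a1, P4ha1, P4ha2, P4hb, Plod3 and Serpinh1) and in 19.6% of all windows. A member counted if any of its windows held the motif, while the share over all is one of single windows. These measures differ, which can favour the members. The matches describe the letters of the windows and were set against no binding data.

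Of the 57 genes, 23 averaged at least 1 FPKM over the 6 libraries and were tested with the 11816 genes that did so, and 34 stayed under that level. Depth was estimated from the smallest steps of the FPKM values, which gave 81 to 99 fragments per kilobase for each FPKM, so that depths differed little between libraries. All 6 endothelial markers averaged above 1 FPKM, with summed levels of 1350 to 1380 FPKM with TGF-β2 and 1200 to 1300 FPKM without it, but with TGF-β2 only Emcn rose (log2 change 0.80), while Kdr and Tie1 fell (-0.80 and -0.33) and 3 did not pass. Fibroblast markers summed to 18.2 to 22.6 FPKM with TGF-β2 and to 2.51 to 3.34 FPKM without it, from Pdgfra and Pdgfrb alone, while Dcn, Lum, Dpt and Thy1 stayed at or below 0.0481 FPKM. Smooth muscle and pericyte markers summed to 12.4 to 19.4 FPKM with TGF-β2 and to 1.57 to 1.85 FPKM without it, with Acta2 and Des the 2 of 7 above 1 FPKM on average. Cartilage and bone markers (0 of 5 above 1 FPKM) summed to at most 0.684 FPKM, leukocyte markers (0 of 4) to at most 0.224 FPKM and pancreas markers (0 of 5) to at most 0.0675 FPKM. Epithelial markers, in effect Krt18 with Epcam at 0, summed to 11.5 to 15.8 FPKM with TGF-β2 and to 38.2 to 54.1 FPKM without it. The library of the miR-31 inhibitor with TGF-β2 stood apart in 10 genes of amino acid stress, with a median 1.55 above the negative control with TGF-β2 on the log2(FPKM + 1) scale, against 0.55 for the miR-27 inhibitor. In such bulk RNA, a change in the kinds of cells present and a change per cell cannot be told apart, and the part that these markers and that library had in the results below was not tested beyond the counts without the library.

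Most of the collagen RNA of MS-1 cells, as summed FPKM, came from Col4a1, Col4a2 and Col8a1. All 42 chains summed to 794, 812 and 769 FPKM in the miR-31, miR-27 and negative-control transfections with TGF-β2, against 475, 464 and 458 FPKM in the same transfections without it. Col4a1, Col4a2 and Col8a1 held 87.0%, 87.1% and 86.4% of that sum with TGF-β2 and 89.6%, 89.6% and 89.2% without it. Fibrillar chains took 7.67%, 7.38% and 8.10% with TGF-β2 and 5.03%, 4.91% and 5.51% without it, so that their share was higher in every library with TGF-β2. Basement membrane chains (types IV, XV and XVIII) took 66.6%, 64.5% and 62.6% with TGF-β2 and 71.5%, 69.2% and 69.7% without it. These shares are a description and were not tested.

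**Figure D1:**
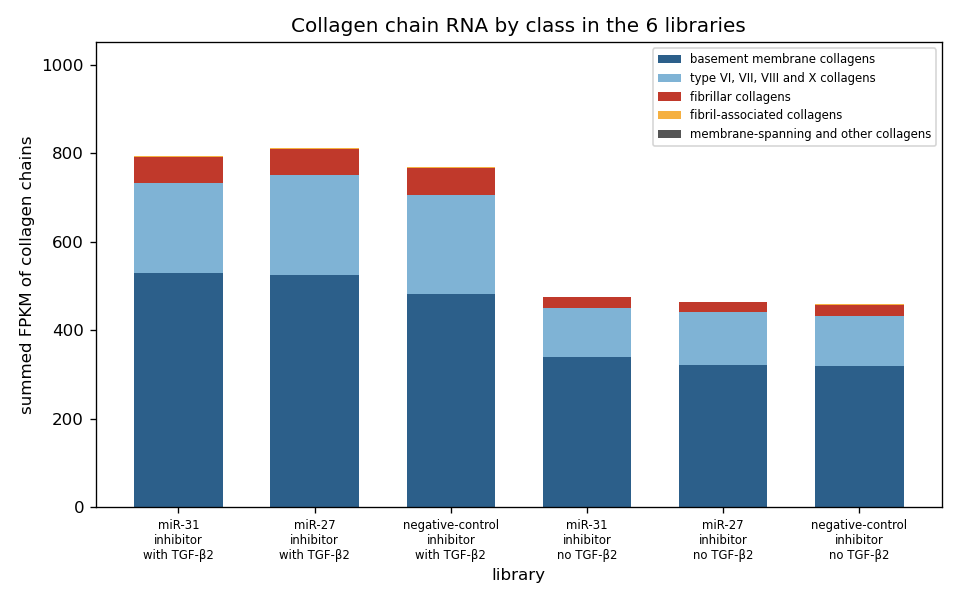
Summed FPKM of the collagen chains in each library, stacked by class of collagen, with the libraries with TGF-β2 to the left of those without it. The bars reach 769 to 812 FPKM with TGF-β2 and 458 to 475 FPKM without it, and basement membrane chains are the tallest segment in each bar.

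With TGF-β2, 21 of the 23 tested members rose and 2, Col6a3 and Loxl4, fell at a limma adjusted p under 0.05, which leaves 0 that did not pass. Among all tested genes 22.7% rose and 27.5% fell. The median log2 change of the members was 0.71, beside -0.02 over all tested genes, for which the 5th and 95th percentiles were -0.62 and 0.62. In each of the 23 members, the 3 libraries with TGF-β2 and the 3 without it did not overlap, and among all tested genes 26.8% were higher and 31.6% lower without overlap. Col3a1 and Loxl1 were under 1 FPKM in every library without TGF-β2, so they entered the test only through the libraries with it. The counts and the median above include both. The other 21 were at 1 FPKM or more in all 6 libraries. In this fit, leaving out 1 library takes its partner of the same inhibitor out of the TGF-β2 estimate as well. Without the miR-31 library with TGF-β2, the counts were again 21 and 2.

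**Figure D2:**
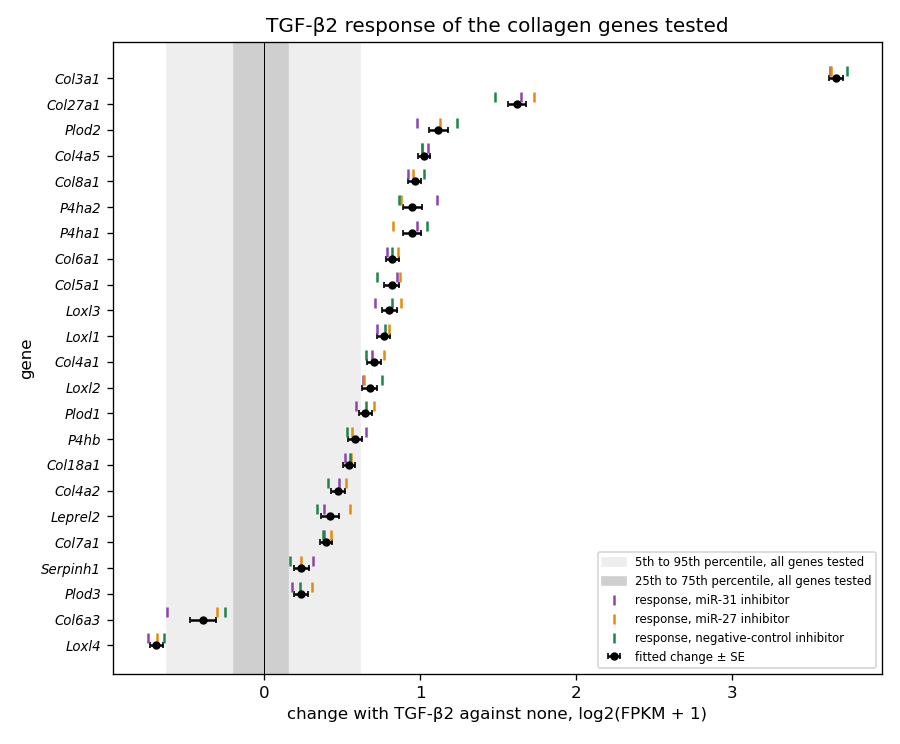
Log2 change with TGF-β2 of the 23 tested members, as the limma estimate with its standard error and as the response in each of the 3 transfections. Col3a1 stands at 3.67 and Loxl4 at -0.69, and 21 of the 23 estimates lie above 0.

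The 3 tested fibrillar chains rose, and Col3a1 and Col27a1 had the largest estimates of the 23 tested members. Col3a1, the chain of type III collagen of vessel walls and skin (chr1:45368383-45406551 in mm9), was at 13.8, 13.6 and 16.2 FPKM in the miR-31, miR-27 and negative-control transfections with TGF-β2, against 0.197, 0.179 and 0.291 FPKM in those without it. All 3 libraries with TGF-β2 were far above all 3 without it, and the negative control was the highest in both states. The means were 14.6 ± 1.44 FPKM with TGF-β2 and 0.222 ± 0.0601 FPKM without it (SD, n = 3 each), a ratio of 65.4. On the log2(FPKM + 1) scale, which understates changes of low genes, the rise was 3.67 ± 0.04 (SE, limma adjusted p = 1.474e-05), the 13th largest of all tested genes. Since Col3a1 was tested only through the libraries with TGF-β2, its p and rank follow a filter that favours a rise. The low level without TGF-β2 still stood for about 99, 85 and 160 fragments.

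Col27a1, a fibrillar chain best known from cartilage (chr4:62876446-62996024), was at 5.78, 5.97 and 5.73 FPKM with TGF-β2 in the order of inhibitors just given, against 1.17, 1.10 and 1.41 FPKM without it. Its log2 rise was 1.62 ± 0.06 (limma adjusted p = 9.602e-05), and the groups were well apart. The name mKIAA1870 is listed at the same place and held 3.72, 3.57 and 4.16 FPKM with TGF-β2 and 0.930, 0.751 and 0.674 FPKM without it, so the level of Col27a1 is uncertain, although both names were higher with TGF-β2. Col5a1, a chain that sets fibril diameter, was the most abundant fibrillar chain at 40.1, 39.1 and 38.5 FPKM with TGF-β2 and 21.7, 20.8 and 22.9 FPKM without it. It rose by 0.82 ± 0.05 on the log2 scale (limma adjusted p = 0.0003322).

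Type I collagen, the main fibrillar collagen of fibroblasts, stayed at very low levels. Col1a1 was at 0.222, 0.225 and 0.444 FPKM with TGF-β2, about 113, 109 and 233 fragments, against 0.00228, 0 and 0.00620 FPKM without it, or 1, 0 and 4 fragments. Its partner chain Col1a2 did not exceed 0.0560 FPKM in any library. Col5a2, which pairs with Col5a1 in type V collagen, was at 0.391, 0.337 and 0.665 FPKM with TGF-β2 and 0.0242, 0.0245 and 0.0534 FPKM without it, higher in every library with TGF-β2. These 3 genes were below the level needed for the test. In the negative-control transfection with TGF-β2, Col1a1 and Col5a2 were above the libraries of both other inhibitors, a difference between single libraries that cannot be tested.

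The basement membrane collagens were abundant, and their 4 tested chains rose. Col4a1 (chr8:11198423-11312826) was at 337, 337 and 309 FPKM in the miR-31, miR-27 and negative-control transfections with TGF-β2, against 208, 197 and 196 FPKM without it. Its partner Col4a2 (chr8:11312829-11449287) was at 169, 162 and 148 FPKM with TGF-β2 and 120, 112 and 111 FPKM without it. The log2 changes were 0.71 ± 0.04 for Col4a1 and 0.47 ± 0.04 for Col4a2 (limma adjusted p = 0.0003956 and 0.001219). The pair is transcribed in opposite directions with 2 bases between the deposited places. The ratio of Col4a1 to Col4a2, chosen after the values were seen and not tested, was 2.0, 2.08 and 2.08 with TGF-β2 and 1.73, 1.75 and 1.77 without it.

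Col4a5, a chain of the kidney glomerular basement membrane (chrX:137909962-138123778), was at 19.1, 20.5 and 20.2 FPKM with TGF-β2 and 8.68, 9.63 and 9.48 FPKM without it. Its rise of 1.03 ± 0.04 on the log2 scale was larger than those of the more abundant Col4a1 and Col4a2 (limma adjusted p = 9.918e-05), though the differences between these genes were not tested. Its divergent neighbour Col4a6, 1342 bases away, was at 0.0931, 0.109 and 0.101 FPKM with TGF-β2 and 0.0575, 0.0669 and 0.0691 FPKM without it. Col18a1, the precursor of endostatin, was at 3.55, 3.50 and 3.39 FPKM with TGF-β2 and 2.17, 2.05 and 1.99 FPKM without it, a log2 rise of 0.54 ± 0.04 (limma adjusted p = 0.0005752). The remaining chains of this class, Col4a3, Col4a4, Col4a6 and Col15a1, were under 0.11 FPKM in every library.

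**Figure D3:**
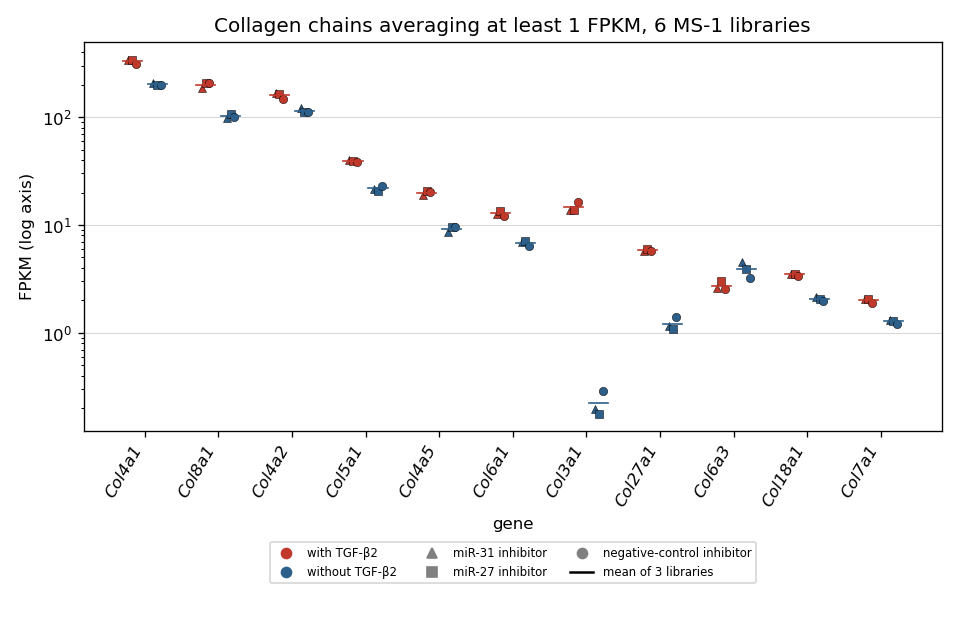
FPKM of the 11 tested collagen chains in each library on a log axis, with TGF-β2 to the left of without it, and a bar for the mean of 3 libraries. The markers of the TGF-β2 states are separate for each chain, and Col6a3 is the only chain of the 11 with the lower values in the libraries with TGF-β2.

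Among the network-forming and microfibrillar collagens, Col8a1, a short chain found in vessel walls, had the highest level. It was at 185, 207 and 206 FPKM in the miR-31, miR-27 and negative-control transfections with TGF-β2 and 97.2, 106 and 101 FPKM without it, a log2 rise of 0.97 ± 0.04 (limma adjusted p = 0.0001514). Its partner chain Col8a2 stayed at or below 0.0303 FPKM. Col7a1, the anchoring fibril collagen of skin, was low, at 2.05, 2.07 and 1.88 FPKM with TGF-β2 and 1.33, 1.28 and 1.22 FPKM without it, and rose by 0.40 ± 0.04 (limma adjusted p = 0.001547).

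The chains of type VI collagen, which assemble together into beaded microfibrils, moved in opposite directions. Col6a1 rose, with 12.8, 13.6 and 12.0 FPKM with TGF-β2 and 6.95, 7.05 and 6.36 FPKM without it (log2 change 0.82 ± 0.04, limma adjusted p = 0.0001999). Col6a3 fell, with 2.58, 3.02 and 2.54 FPKM with TGF-β2 and 4.51, 3.95 and 3.22 FPKM without it (log2 change -0.39 ± 0.08, limma adjusted p = 0.01628). Its highest library with TGF-β2 was close to its lowest library without it, and with no filter on low values the adjusted p of limma became 0.0806. The ratio of Col6a3 to Col6a1 was 0.202, 0.222 and 0.212 with TGF-β2 and 0.649, 0.560 and 0.506 without it, a ratio picked after seeing the values. Col6a2, a further type VI chain, was at 0.0857 to 0.0972 FPKM with TGF-β2 and 0.0274 to 0.0369 FPKM without it. Col6a1 was thus 134 to 140 times the level of Col6a2 with TGF-β2 and 191 to 251 times without it.

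The 34 members under the filter are given as levels without a test. Of these, 17 were higher and 4 lower without overlap between the TGF-β2 states, and 13 overlapped. Among all 10798 genes under the filter and not at 0 throughout, 13.7% were higher and 8.08% lower without overlap. The higher members were Col1a1, Col1a2, Col2a1, Col4a3, Col4a6, Col5a2, Col6a2, Col8a2, Col11a1, Col11a2, Col12a1, Col14a1, Col16a1, Col19a1, Leprel1, Lox and P4ha3. Some of these separations rest on few fragments. In the miR-31, miR-27 and negative-control transfections, Col8a2 had about 4, 11 and 4 with TGF-β2 and 4, 3 and 1 without it. For Lox these were about 6, 6 and 8 against 0, 1 and 0. The lower members were Col5a3, Col15a1, Col17a1 and Col22a1. Col12a1 and Col14a1, which attach to the surface of collagen fibrils, were among the higher. Col12a1 was at 0.182, 0.171 and 0.270 FPKM in the miR-31, miR-27 and negative-control transfections with TGF-β2 and 0.0116, 0.0221 and 0.0230 FPKM without it. Col14a1 was at 0.332, 0.325 and 0.407 FPKM with TGF-β2 and 0.0800, 0.0922 and 0.103 FPKM without it. Col5a3, a chain of type V collagen, was among the lower, at 0.105, 0.0788 and 0.0705 FPKM with TGF-β2 and 0.499, 0.326 and 0.277 FPKM without it. Col22a1, a collagen of tissue junctions, was at 0.00362, 0.00576 and 0.00526 FPKM with TGF-β2 and 0.0623, 0.0509 and 0.0689 FPKM without it, about 3, 4 and 4 fragments against 49, 38 and 60. The 13 whose states overlapped were Col4a4, Col6a4, Col6a6, Col9a1, Col9a2, Col9a3, Col10a1, Col13a1, Col20a1, Col23a1, Col24a1, Col25a1 and Col28a1. In total 19 of the 34 stayed under 0.1 FPKM in every library. Besides Col5a2, those reaching 0.5 FPKM were Col9a3, a fibril-associated chain, and P4ha3. Col9a3 was at 0.880, 0.827 and 0.859 FPKM with TGF-β2 and 0.70, 0.618 and 0.856 FPKM without it, and its groups overlapped.

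**Figure D4:**
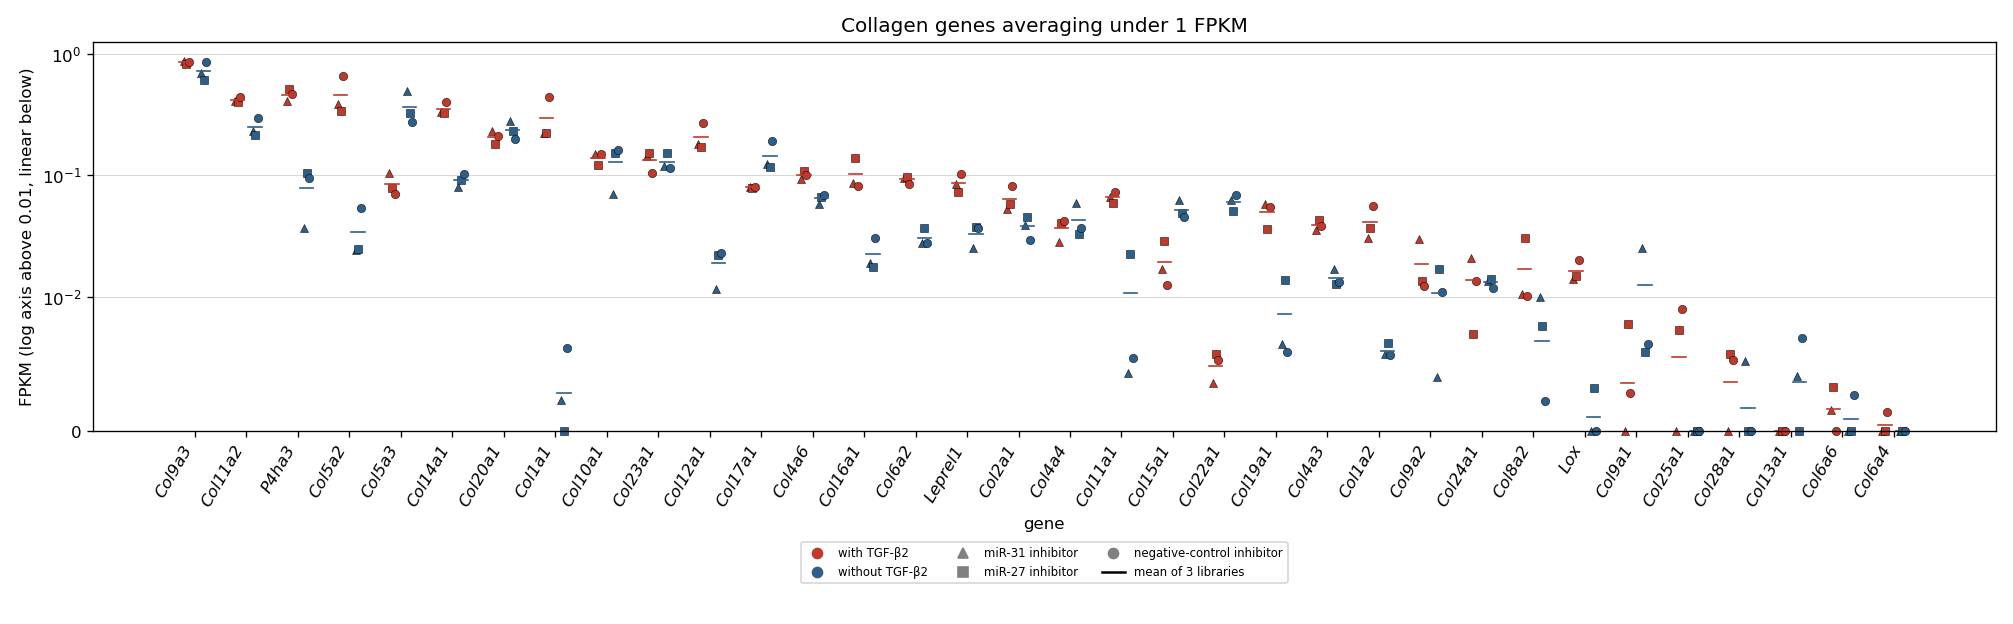
FPKM of the 34 members averaging under 1 FPKM in each library, on an axis that is linear near 0 and logarithmic above, with TGF-β2 to the left of without it. No value exceeds 0.88 FPKM, and the triangles, squares and circles stand for the miR-31, miR-27 and negative-control inhibitors.

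P4ha1, P4ha2, P4hb and Leprel2, the 4 tested members that form prolyl hydroxylases, rose. P4ha1, the main catalytic subunit of prolyl 4-hydroxylase (chr10:58786044-58836052), was at 68.4, 67.0 and 60.3 FPKM in the miR-31, miR-27 and negative-control transfections with TGF-β2, against 34.1, 37.4 and 28.7 FPKM without it. The alternative catalytic subunit P4ha2 was at 32.5, 26.5 and 24.7 FPKM with TGF-β2 and 14.5, 13.9 and 13.1 FPKM without it. Both had a log2 rise of 0.95, with SE of 0.06 (limma adjusted p = 0.0003335 for P4ha1 and 0.0004515 for P4ha2). P4ha2 was higher in the miR-31 library with TGF-β2 than in the other libraries with TGF-β2. P4hb, protein disulfide isomerase and the enzyme's other subunit, was at 426, 390 and 396 FPKM with TGF-β2 and 270, 263 and 274 FPKM without it. It rose by 0.58 ± 0.04 (limma adjusted p = 0.000714) and was several-fold more abundant than P4ha1 in every library.

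Leprel2, a prolyl 3-hydroxylase, was at 35.8, 38.1 and 33.7 FPKM with TGF-β2 and 27.2, 25.7 and 26.4 FPKM without it, a log2 rise of 0.42 ± 0.06 (limma adjusted p = 0.003644). The remaining 2 prolyl hydroxylases were under the filter. P4ha3, another catalytic subunit, was at 0.412, 0.511 and 0.469 FPKM with TGF-β2 and 0.0368, 0.106 and 0.0953 FPKM without it. Leprel1 was at 0.0845, 0.0727 and 0.102 FPKM with TGF-β2 and 0.0253, 0.0372 and 0.0366 FPKM without it. Both were higher in every library with TGF-β2.

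All 3 lysyl hydroxylases rose, by different amounts. Plod2, which acts on the chain ends where cross-links form (chr9:92433639-92503265), was at 12.8, 14.0 and 14.0 FPKM with TGF-β2 and 5.99, 5.83 and 5.36 FPKM without it. Its log2 rise was 1.12 ± 0.06 (limma adjusted p = 0.0002688). Plod1, which acts on the helix, was at 26.3, 26.1 and 22.7 FPKM with TGF-β2 and 17.1, 15.7 and 14.1 FPKM without it, a rise of 0.65 ± 0.04 (limma adjusted p = 0.0004657). Plod3, which also adds sugars, was the most abundant of the 3 and rose least, with 59.0, 62.5 and 58.1 FPKM with TGF-β2 and 52.0, 50.3 and 49.4 FPKM without it. Its rise of 0.24 ± 0.04 (limma adjusted p = 0.01118) no longer passed without either library of the negative control (adjusted p = 0.0646) or of the miR-27 inhibitor (adjusted p = 0.0719).

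Serpinh1, the collagen chaperone, was at 394, 372 and 343 FPKM with TGF-β2 and 317, 315 and 305 FPKM without it. The groups did not overlap, and the log2 rise was 0.24 ± 0.05 (limma adjusted p = 0.01228, and 0.0637 without either miR-27 library). The name AK205936 covers the same place, at 181 to 233 FPKM, so the level of Serpinh1 is uncertain.

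The lysyl oxidases were the only class of the enzymes with a member that fell. Loxl2, which also cross-links type IV collagen, was at 73.0, 70.8 and 71.6 FPKM in the miR-31, miR-27 and negative-control transfections with TGF-β2 and 46.8, 45.1 and 41.9 FPKM without it. It rose by 0.68 ± 0.05 (limma adjusted p = 0.0004985). Loxl3 was at 19.6, 21.8 and 20.5 FPKM with TGF-β2 and 11.6, 11.4 and 11.2 FPKM without it, a rise of 0.80 ± 0.05 (limma adjusted p = 0.0003666). Loxl1, known for its part in elastic fibres, was at 1.47, 1.64 and 1.77 FPKM with TGF-β2 and 0.496, 0.511 and 0.621 FPKM without it (rise 0.77 ± 0.04, limma adjusted p = 0.0002496). Loxl1 was tested only through the libraries with TGF-β2, as given above. All 3 were higher in each library with TGF-β2 than in any without it.

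Loxl4 (chr19:42666769-42687296) went the other way, with 24.5, 24.0 and 23.3 FPKM with TGF-β2 and 41.7, 39.1 and 36.8 FPKM without it. Its log2 change was -0.69 ± 0.04 (limma adjusted p = 0.0003851), below the 5th percentile of all tested genes. Loxl2 was 2.95 to 3.07 times the level of Loxl4 with TGF-β2 and 1.12 to 1.15 times without it, a ratio chosen after the values were seen. Lox itself, the founding member of the family, was listed near 0 in both states. It was at 0.0139, 0.0147 and 0.0202 FPKM with TGF-β2 and 0, 0.00318 and 0 FPKM without it. The name AK084265 covers the same place, at 0 to 0.413 FPKM, so the level of Lox is uncertain.

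**Figure D5:**
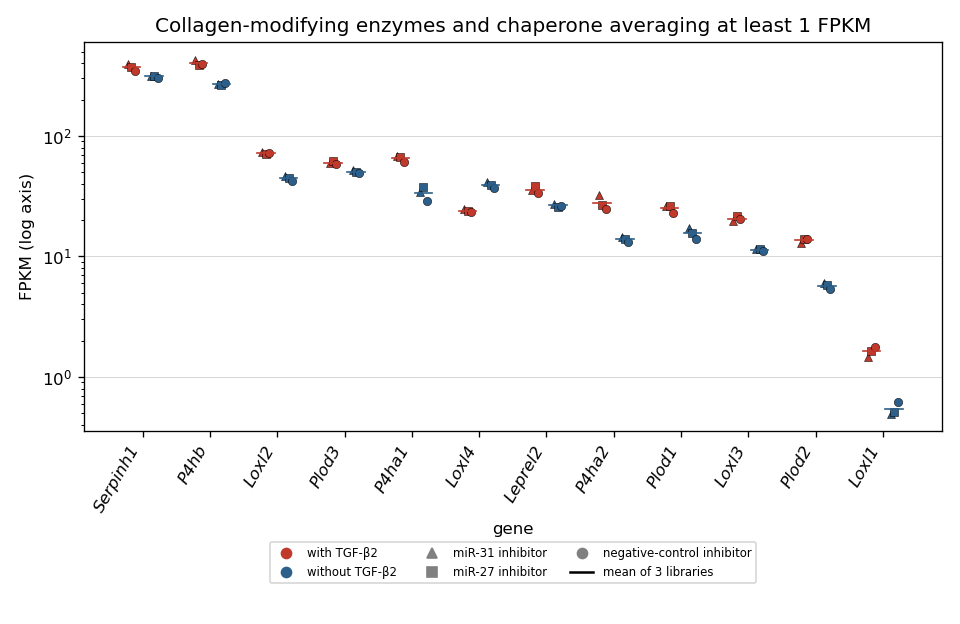
FPKM of the 12 tested enzyme and chaperone genes in each library on a log axis, with TGF-β2 to the left of without it, and a bar for the mean of 3 libraries. Serpinh1 and P4hb lie above 260 FPKM in all 6 libraries, and Loxl4 is the only gene of the 12 with the lower values in the libraries with TGF-β2.

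The deposited places of 9 of the 23 tested members are shared with other names, as for Col27a1 and Serpinh1 above. Loxl2 shares its place with Entpd4 and BC086315, Loxl3 with Aup1 and Htra2, Plod3 with Znhit1, and Col8a1 with AK051864, and how reads were divided between such names is not given in the sources used here. The place also runs over all names that share it, so it can exceed the gene.

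Other genes of the collagen pathway were read from the same test by lists. Of 10 tested genes of folding and modification, 8 rose and 0 fell, with a median log2 change of 0.33. The 4 with the largest change were Creb3l2 at 1.08, a transcription factor of secretion, Fkbp14 at 1.01 and Fkbp7 at 0.94, both prolyl isomerases, and Lepre1 at 0.49, a prolyl 3-hydroxylase. Of 10 tested genes of export from the endoplasmic reticulum, 5 rose and 0 fell, with a median of 0.12. Sec23a, Sec24d and Sec31a, coat proteins of transport vesicles, rose by 0.47, 0.46 and 0.36, while Ctage5, at -0.22, did not pass (limma adjusted p = 0.0807). These counts and medians stand beside 22.7% higher, 27.5% lower and a median of -0.02 over all tested genes.

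Propeptide cleavage and fibril assembly had 6 of 7 tested genes higher and 1 lower, with a median log2 change of 0.61. Fn1, fibronectin, rose by 2.86 and was at 210, 218 and 202 FPKM in the miR-31, miR-27 and negative-control transfections with TGF-β2, against 31.1, 31.1 and 22.8 FPKM without it. Bmp1 and Tll1, proteases that remove the C-terminal propeptide, rose by 1.5 and 2.19. Tll1 was at 4.23, 3.88 and 3.74 FPKM with TGF-β2 and 0.0695, 0.0913 and 0.0847 FPKM without it. Tll1 was thus tested only through the libraries with TGF-β2, and the counts and median of the list include it. Bmp1 was at 20.9, 20.7 and 21.3 FPKM with TGF-β2 and 6.94, 6.46 and 6.89 FPKM without it. Adamts14, a protease of the N-terminal propeptide, fell by 0.67. Of 6 tested genes of breakdown and uptake, 2 rose (Mmp2 by 2.51 and Timp3 by 0.66), 1 fell (Pepd, at -0.25) and 3 did not pass, among them the protease inhibitor Timp1, at -0.26 (limma adjusted p = 0.0559). The median of that list was -0.01, and its counts stand beside 22.7% higher and 27.5% lower among all tested genes. Timp3, another such inhibitor, was at 47.5, 80.2 and 91.3 FPKM with TGF-β2 and 42.7, 48.3 and 42.1 FPKM without it, so that its rise was smallest with the miR-31 inhibitor. The TGF-β2 states of Timp3 overlapped, and its limma adjusted p was 0.0347. Mmp2, a protease that cuts denatured collagen and type IV collagen, was at 26.6, 26.8 and 25.7 FPKM with TGF-β2 and 4.23, 3.67 and 3.57 FPKM without it. Of 4 tested receptor genes, Itgb1 and Ddr1 rose by 0.60 and 0.53, Ddr2, a receptor of fibrillar collagen, fell by 0.22, and Itga1, at -0.04, did not pass (limma adjusted p = 0.411), with a median of 0.24.

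The inhibitors moved the 23 tested members far less than TGF-β2 did, and 0 were called for either inhibitor by limma. Over all tested genes, 0.0339% (4 genes) passed for the miR-31 inhibitor against the negative control and 0.00846% (1 gene) for the miR-27 inhibitor. At an unadjusted p under 0.05 there were 6 members for miR-31 and 4 for miR-27, beside 18.1% and 12.4% of all tested genes. These member counts were not stable. They mostly fell when 1 library was left out, and they rose with no filter on low values, over all 57 members. The share of all genes was not computed in those settings, so the shifts do not set the members apart from other genes. Both comparisons use the same negative-control libraries, so their values are not independent. The median log2 difference of the members was 0.07 for the miR-31 inhibitor and 0.06 for the miR-27 inhibitor, beside 0.01 over all tested genes in each.

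Members with the same sign in both TGF-β2 states are given as log2 differences from the negative control, with TGF-β2 and then without it, ranked by the smaller of the 2 differences. With the miR-31 inhibitor, 14 members were higher in both states, 4 lower in both and 5 of mixed sign. The same split was not counted over all tested genes, so it does not set the members apart from them. By that rank the first 4 higher were Plod1 (0.20 and 0.27), P4ha1 (0.18 and 0.24), P4ha2 (0.38 and 0.14) and Col4a2 (0.18 and 0.11). The first 4 lower were Loxl1 (-0.16 and -0.12), Col3a1 (-0.22 and -0.11), Col4a5 (-0.08 and -0.12) and Col8a1 (-0.16 and -0.06). The fitted difference of Plod1 was 0.24 ± 0.05 with an unadjusted p of 0.00722 and a limma adjusted p of 0.227. That of P4ha2 was 0.26 ± 0.08 (limma adjusted p = 0.236).

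With the miR-27 inhibitor, 15 members were higher in both states, 3 lower in both and 5 of mixed sign, again with no such count over all tested genes. The first 4 higher were Col6a3 (0.18 and 0.23), P4ha1 (0.15 and 0.37), Plod1 (0.19 and 0.15) and Col6a1 (0.17 and 0.13), and the 3 lower were Col3a1 (-0.23 and -0.13), Loxl1 (-0.07 and -0.10) and P4hb (-0.02 and -0.06). The fitted difference of P4ha1 was 0.26 ± 0.07 (limma adjusted p = 0.322) and that of Col3a1 -0.18 ± 0.05 (limma adjusted p = 0.341). None of these passed the threshold, and a value that misses it does not show that the levels were alike.

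All 23 tested members had an annotated 3' untranslated region, and 4 held a match to each seed. The miR-31 match TCTTGCC was in Col5a1, Col8a1, Loxl2 and Loxl3, and in 13.2% of the 9547 tested genes with such a region. The miR-27 match ACTGTGA was in Col18a1, Col27a1, Loxl4 and P4ha1, and in 17.8% of those genes. A short window around the match, in capitals, is shown for the member of each set with the largest fitted difference in size, of either sign, under its inhibitor.
Col8a1, miR-31 match: accacagttctTCTTGCCacggcttacta
P4ha1, miR-27 match: gtaatacatttACTGTGAtctaaatacac
Col8a1 had a fitted log2 difference of -0.11 with the miR-31 inhibitor (limma adjusted p = 0.332), and the other 3 genes with that match ranged from -0.01 to 0.09. P4ha1 had 0.26 with the miR-27 inhibitor, and the other 3 genes with its match ranged from -0.07 to 0.06. None of these passed the test. Over all tested genes with such a region, the median log2 difference with the miR-31 inhibitor was 0.0192 with the match and 0.0085 without it. For the miR-27 inhibitor these medians were 0.0187 and 0.0035, and the differences were not tested.

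The response to TGF-β2 was close in size in the 3 transfections, with member medians of 0.69 with the miR-31 inhibitor, 0.77 with the miR-27 inhibitor and 0.73 with the negative control. Each response compares 1 library with 1, so whether it depends on the inhibitor cannot be tested. The response that stood farthest from the other two was that of Col6a3 with the miR-31 inhibitor, at -0.62, against -0.30 with the miR-27 inhibitor and -0.25 with the negative control. P4ha2 followed, at 1.11 with the miR-31 inhibitor, 0.88 with the miR-27 inhibitor and 0.87 with the negative control. Leprel2 was at 0.38, 0.55 and 0.34, Col27a1 at 1.65, 1.73 and 1.48, and P4ha1 at 0.98, 0.83 and 1.04 in the same order of inhibitors. All 23 members kept the sign of their change in each of the 3 transfections.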

How the data were processed

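RNA of 6 MS-1 libraries was sequenced, per the labels' protocols, from directional libraries of rRNA-depleted RNA. The authors deposited 1 table of FPKM. Alignment and assembly tools are listed, per the submitters' processing notes, as TopHat2 2.0.9 and Cufflinks 2.1.1, with build mm9. The annotation and counting options are not given in the sources used here. Listed starts count from 0 (93 of 153 rows compared with RefSeq were 1 lower) and are printed counted from 1.

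Values were used as log2(FPKM + 1). Genes averaging at least 1 FPKM were fitted in limma 3.58.1, run in R 4.3.3, with inhibitor and TGF-β2 as additive terms and plain moderation. Tests were 2-sided, and p-values were adjusted by Benjamini-Hochberg over 11816 genes, with a threshold of 0.05. The fit had 2 residual and 2.87 prior degrees of freedom. No p was computed for a list. The deposited values hold no counts, so fragments are approximate and no count test was run.

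The members and lists were chosen with earlier results of these data known. Named genes were all tested members, low members reaching 0.5 FPKM, the 4 higher and 4 lower per inhibitor, the 4 largest changes of each pathway list and the 5 most different responses. Values of Col1a1, Col1a2, Col4a3, Col4a4, Col4a6, Col5a3, Col6a2, Col8a2, Col12a1, Col14a1, Col15a1, Col22a1, Leprel1 and Lox lie outside this rule, and the other low members are only listed; these genes were chosen after their values were seen. Sites of miRNA seeds came from 3' untranslated regions of GENCODE M21. Alternatives were other pseudocounts, filters, scalings and fit options, and each library left out.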

Additional observations from a re-analysis of the deposited data

How the results depend on the processing

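The inhibitor term of the fit sets the TGF-β2 states side by side within each transfection, and without it 21 members rose and 2 fell. With that term in the fit, leaving out either library of a transfection gave the same TGF-β2 estimates. Of the 23 tested members, 21 rose and 2 fell under TGF-β2 with other pseudocounts, scalings and fit options. A mean of at least 5 FPKM left 18 members tested, of which 17 rose and 1 fell, since Col6a3 is then not tested. With no filter, 28 of all 57 members rose and 3 fell, Col6a3 not among them (limma adjusted p = 0.0806). These settings test different numbers of members, so their counts are not out of the same total. Over all tested genes, more fell than rose in both of these filter settings, whereas more members rose than fell. The shares of all genes that passed in these settings were not set beside the member counts. Without 1 library at a time, 19 to 21 members rose and 2 fell, and over all tested genes 1640 to 2815 rose and 1926 to 3272 fell. Plod3 and Serpinh1 were the members lost, as given above. For the miR-31 inhibitor 0 to 1 members were called without 1 library, the 1 being P4ha2 (0.38, limma adjusted p = 0.0328) without the miR-31 library lacking TGF-β2, when 1137 of all genes were called. For the miR-27 inhibitor 0 were called in each case. The pseudocount moved the changes of low genes by over 1.5 times. Col3a1 had 1.90 at a pseudocount of 5 and 5.52 at 0.1, Col27a1 had 0.80 and 2.17, and Loxl1 had 0.26 and 1.43. Under these alternatives 0 of the 23 members changed the sign of their TGF-β2 change. Of the inhibitor differences, none of which was called with all 6 libraries, 5 changed sign for miR-31 (Col5a1, Col27a1, Loxl3, P4hb and Plod2) and 6 for miR-27 (Col5a1, Col8a1, Col27a1, Leprel2, Loxl2 and Plod2) under at least 1 alternative. With 1 library per condition, small inhibitor differences cannot be resolved.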
